A study of Mus musculus with 40 samples.

Results

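The genes described here are 6 genes of red blood cells, measured in mouse cerebellum. Hbb-bs and Hbb-bt encode the adult beta-globin chains of haemoglobin, Hba-a1 and Hba-a2 its alpha-globin chains, Alas2 the erythroid form of the enzyme that starts haem synthesis, and Slc4a1 the anion exchanger band 3 of the red cell membrane. They were taken by gene symbol, after matching each Ensembl ID without its version. All 6 were found among the 54331 gene IDs of the table, and 6 of 6 passed the filter on low values (4 or more of the 40 libraries had to read 10 or higher) that left 21367 genes for testing.

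The study sequenced ribosome-depleted total RNA from cerebella of male mice of the strain C57BL6, in 40 libraries. Mice of the genotypes INDY, CSB, DKO and WT received a ketogenic diet (KD) or a standard diet (SD), and the question asked here is how the 6 genes differed between the diets within each genotype. There were 6 INDY KD, 6 INDY SD, 5 CSB KD, 6 CSB SD, 5 DKO KD, 4 DKO SD, 4 WT KD and 4 WT SD libraries, each called below by its genotype, diet and number. INDY is a name of Slc13a5, a citrate transporter, and CSB of Ercc6, a protein of transcription-coupled DNA repair. The labels used here state neither the alleles, the ages, the length of feeding nor whether the brains were perfused, and they do not say that libraries came from separate animals, so the p-values below measure the spread between libraries. No other allele or agent is named for any group.

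Haemoglobin is a tetramer of alpha- and beta-globin chains, each of which holds a haem group. Its mRNAs are made in erythroid precursors of the bone marrow and spleen. Red cells of the mouse lose their nucleus before they enter the blood, but reticulocytes, the young red cells, still carry globin and Alas2 mRNA, so tissue RNA holds these transcripts wherever blood remains in the vessels. Band 3 ties the membrane to the spectrin skeleton through ankyrin, while Alas2 uses pyridoxal phosphate to join glycine and succinyl-CoA. In bulk samples fewer cells of a type and less RNA per cell cannot be told apart.

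For 5 of the genes, the 110 bases before the RefSeq start are shown, 5′ to 3′ on the gene's own strand, from RefSeq (GRCm38.p6). Capitals mark 4 motifs on either strand. They are CACCC, a binding sequence of erythroid Krüppel-like factor, then CCAAT, bound by CCAAT-binding factors, then GATA, bound by GATA factors, and finally ATATAA, a form of the TATA box. In the Alas2 line GGGTG and TATC are CACCC and GATA read on the other strand, as is ATTGG for CCAAT in Hbb-bt. No marked motif shares a base with another. The windows are chr7:103827929-103828038 and chr7:103813924-103814033 (both minus strand) for Hbb-bs and Hbb-bt, chr11:32283562-32283671 and chr11:32296382-32296491 (both plus strand) for Hba-a1 and Hba-a2, and chrX:150547307-150547416 (plus strand) for Alas2. The RefSeq starts differ from the outer ends of the GENCODE genes given further down, and each of the 5 windows shares bases with the GENCODE gene. Slc4a1 (chr11:102348824-102366203) is named only.

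Hbb-bs: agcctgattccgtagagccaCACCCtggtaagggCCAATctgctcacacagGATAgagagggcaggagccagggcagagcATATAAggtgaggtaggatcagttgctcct
Hbb-bt: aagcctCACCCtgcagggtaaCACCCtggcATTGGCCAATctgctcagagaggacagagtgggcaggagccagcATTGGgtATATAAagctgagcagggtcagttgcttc
Hba-a1: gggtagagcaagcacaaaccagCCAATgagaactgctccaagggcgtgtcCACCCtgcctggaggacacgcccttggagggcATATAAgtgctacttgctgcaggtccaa
Hba-a2: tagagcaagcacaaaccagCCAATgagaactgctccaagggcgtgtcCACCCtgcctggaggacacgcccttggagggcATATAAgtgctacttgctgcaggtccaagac
Alas2: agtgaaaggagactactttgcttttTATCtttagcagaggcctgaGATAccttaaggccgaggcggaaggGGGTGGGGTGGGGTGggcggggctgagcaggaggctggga

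In these windows CACCC was found in all 5 genes and in 29.6% of the 32851 RefSeq promoters of the same length. CCAAT (20.2% of promoters) and ATATAA (4.09%) were found in the 4 globin genes and not in this window of Alas2, and GATA (27.3%) in Hbb-bs and Alas2. The combination found in the globin genes (CACCC with the CCAAT letters and the ATATAA letters) was present in 0.228% of all promoters. The windows of the alpha-globin copies were identical in 107 of 107 paired bases, and those of the beta-globin copies in 85 of 106. The transcripts of Hba-a1 and Hba-a2 matched in 537 of 538 aligned columns, and those of Hbb-bs and Hbb-bt in 570 of 609. The split of reads between 2 such copies is therefore uncertain, above all for Hba-a1 and Hba-a2, and sums of the copies are given below as well. A match of letters is a description and not a site of binding.

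The values are normalised estimated counts, whose sums per library ran from 23736702 to 32247186 and are not depths, so the depth behind a value is unknown. The label check by targeted gene found Slc13a5 at 0 to 0.934 in the 21 INDY and DKO libraries, against 82.1 to 161 in the 19 CSB and WT libraries. Ercc6 transcripts remained present, at 382 to 876 in the 20 CSB and DKO libraries, against 718 to 1069.5 in 19 of the 20 INDY and WT libraries. The library labelled WT KD 25 read 633 for Ercc6, and 1041 for Gm6768, a gene that read 929 to 1245 in CSB and DKO and 0 in the other 19 INDY and WT libraries. This library therefore goes against its label, and the members' WT differences are also given without it. Levels of marker lists below are means over the tested genes of each list. The mean log2 level of 12 cerebellar markers was 10.9 to 13.1 in 39 libraries and 8.17 in DKO SD 1, where 15 forebrain genes stood at 9.72 against 4.23 to 7.86 elsewhere. In WT KD 12 and WT KD 7 the 11 tested genes of a list of 13 neutrophil genes stood at 9.82 and 7.87, against 2.10 to 5.56 in the other 38 libraries. The members' differences in DKO are given with and without DKO SD 1, and those in WT with and without WT KD 7 and WT KD 12. Without WT KD 7 and WT KD 12, the only WT KD libraries left are WT KD 25 and WT KD 28.

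Per kilobase of its longest coding transcript, Hbb-bs had the highest mean level of the 6 genes over the 40 libraries, 8741, followed by Hba-a2 with 6852 and Hba-a1 with 4154. Hbb-bt stood at 984, Alas2 at 116 and Slc4a1 at 12.7 per kilobase. All of these are mean normalised levels divided by length, and the order of Hba-a2 and Hba-a1 depends on how reads were assigned to copies. The 4 globins together held 0.0169% to 0.104% of the sum of values of a library. Slc4a1 reached 10 in 37 of the 40 libraries, and the other 5 genes did so in all 40.

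**Figure D1:**
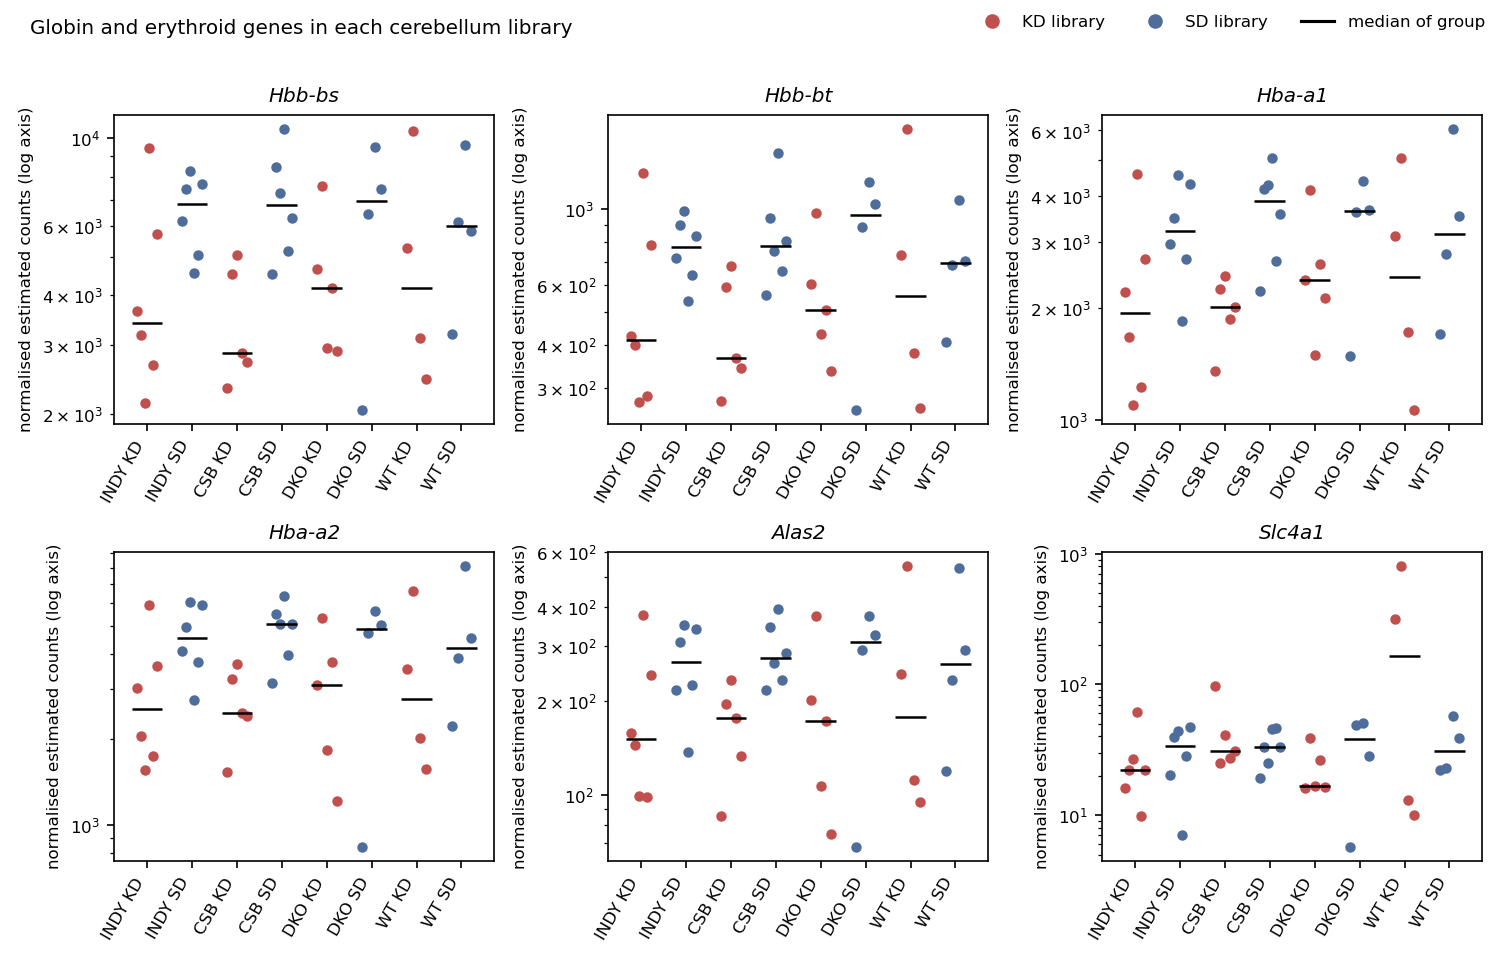
Normalised estimated counts of the 6 genes in each library on a log axis, by genotype and diet; bars mark the group medians. KD and SD libraries overlapped in every genotype for every gene, and Slc4a1 was highest in WT KD 12 (806) and WT KD 7 (318).

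Across all comparisons of diet the globins and Alas2 tended to read lower on KD, but no member passed the test. In the limma fit on log2(value + 1) with Benjamini-Hochberg adjustment over 21367 genes, 0 of 6 members were called between KD and SD in INDY, CSB, DKO or WT, or on average over the 4 genotypes. The share of all genes called was 0% in INDY, CSB, WT and the average, and 0.00468% (1 gene) in DKO. At an unadjusted p under 0.05 there were 989 genes (4.63%) in INDY, 732 (3.43%) in CSB, 1732 (8.11%) in DKO, 2868 (13.4%) in WT and 676 (3.16%) on average. Of the members, 4 were in that count in CSB and 5 on average, all with lower values on KD, and 0 in INDY, DKO and WT. The share of all tested genes with an unadjusted p under 0.05 and a lower value on KD was 1.81% in CSB and 1.95% on average. The median log2 difference (KD minus SD) of the 6 members was -0.65 in INDY, -0.87 in CSB, -0.37 in DKO and -0.38 in WT, and that of all tested genes was 0.00 in INDY and CSB, 0.01 in DKO and -0.01 in WT.

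Hbb-bs (ENSMUSG00000052305.6, chr7:103826534-103828096) had the higher transcript level of the adult beta-globin genes among the members. In CSB it read 2334, 4542, 5075, 2862 and 2714 in the KD libraries, against 4533 (lowest), 6775 (median) and 10577 (highest) in the 6 SD libraries. All 5 KD libraries lay below the SD median and 3 of them below every SD library, so the groups overlapped only in the 4542 and 5075 of CSB KD 18 and CSB KD 19. The log2 difference was -1.02 (SE 0.38, unadjusted p = 0.0118, adjusted p = 0.984), or 2.02-fold lower on KD, with a 95% interval of -1.79 to -0.24.

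In INDY, Hbb-bs read 2133 (lowest), 3412 (median) and 9439 (highest) in the 6 KD libraries, against 4567, 6810 and 8287 in the 6 SD libraries. In this genotype 4 KD libraries lay below every SD library, while INDY KD 22 lay above all of them. The difference was -0.71 (SE 0.36, adjusted p = 0.981).

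In DKO it read 4671, 7570, 2942, 4173 and 2883 in the KD libraries, against 2052, 6431, 9528 and 7466 in the SD libraries. The lowest value of both groups was that of DKO SD 1, and the other 3 SD libraries lay above 4 of the 5 KD libraries. The difference was -0.41 (SE 0.42, adjusted p = 0.828) with DKO SD 1 and -0.89 (SE 0.42, adjusted p = 0.990) without it.

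In WT it read 5259, 10472, 3116 and 2457 in KD 7, 12, 25 and 28, against 3183, 6137, 9638 and 5838 in the SD libraries. KD 12 was above and KD 25 and KD 28 were below every SD library. The difference was -0.35 (SE 0.45, adjusted p = 0.741). It was -1.06 (SE 0.51, adjusted p = 0.26) without WT KD 7 and WT KD 12, and -0.17 (SE 0.48, adjusted p = 0.947) without WT KD 25.

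Of all tested genes, KD and SD values did not overlap for 0.206% in INDY, 0.402% in CSB, 1.74% in DKO and 9.81% in WT, and for 0 of the 6 members in any genotype. Averaged over the 4 genotypes, Hbb-bs differed by -0.62 (SE 0.20, 95% interval -1.03 to -0.21, unadjusted p = 0.00428; adjusted p = 0.9997). Without WT KD 7 and WT KD 12 the average was -0.80 (SE 0.20, adjusted p = 0.31). Without these and DKO SD 1 it was -0.92 (SE 0.18, adjusted p = 0.0992), which was the smallest adjusted p of any member in any setting run. In both of these settings the WT KD group consisted of WT KD 25, which goes against its label, and WT KD 28.

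Hbb-bt (ENSMUSG00000073940.3, chr7:103812524-103813996), the other adult beta-globin gene among the members, followed Hbb-bs at a lower transcript level. In CSB it read 275, 591, 679, 367 and 342 in the KD libraries, against 561, 780 and 1453 (lowest, median and highest) in SD. Again 3 of the 5 KD libraries lay below every SD library. The log2 differences were -0.63 (SE 0.40) in INDY, -0.95 (SE 0.42) in CSB, -0.45 (SE 0.46) in DKO and -0.19 (SE 0.48) in WT. The DKO difference was -0.95 (SE 0.46) without DKO SD 1. In WT it was -1.10 (SE 0.53) without WT KD 7 and WT KD 12, and 0.029 (SE 0.52) without WT KD 25, so its sign rested on single libraries. The log2 ratio of Hbb-bs to Hbb-bt ran from 2.61 to 3.27 over the 40 libraries, and it was lowest in WT KD 12.

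The alpha-globin genes Hba-a1 (ENSMUSG00000069919.7, chr11:32283511-32284465) and Hba-a2 (ENSMUSG00000069917.7, chr11:32296489-32297298) both encode alpha chains. Hba-a1 in CSB read 1348, 2251, 2431, 1862 and 2013 in the KD libraries, against 2214, 3878 and 5073 (lowest, median and highest) in SD. The highest KD value lay between the lowest and the second lowest SD value. Hba-a2 in CSB read 1539, 3263, 3681, 2465 and 2411 in KD, against 3151, 5068 and 6351 in SD. For both genes 3 of 5 KD libraries were below every SD library and all 5 below the SD median.

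The log2 differences of Hba-a1 were -0.67 (SE 0.35) in INDY, -0.86 (SE 0.37) in CSB, -0.34 (SE 0.41) in DKO and -0.45 (SE 0.43) in WT. Those of Hba-a2 were -0.72 (SE 0.41) in INDY, -0.89 (SE 0.43) in CSB, -0.28 (SE 0.48) in DKO and -0.52 (SE 0.50) in WT. Without DKO SD 1 the DKO difference of Hba-a1 was -0.68 (SE 0.43). Without WT KD 7 and WT KD 12 the WT differences were -1.23 (SE 0.49, adjusted p = 0.18) for Hba-a1 and -1.24 (SE 0.59, adjusted p = 0.254) for Hba-a2, and without WT KD 25 they were -0.31 (SE 0.47) and -0.34 (SE 0.55). The DKO value of Hba-a2 was -0.93 (SE 0.44) without DKO SD 1 and 0.0060 without DKO KD 47, so single libraries set both its size and its sign. With the copies summed, alpha-globin differed by -0.87 (SE 0.39) in CSB and beta-globin by -1.01 (SE 0.39), and neither passed (adjusted p = 0.984 for both).

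Hba-a1 was the lower of the alpha copies in 38 libraries, in which the log2 ratio of Hba-a1 to Hba-a2 ran from -0.60 to -0.17. It was the higher copy in DKO KD 47 (0.80) and DKO SD 1 (0.82). In DKO KD 47 Hba-a1 read 2123 and Hba-a2 1216, and in DKO SD 1 they read 1478 and 838. DKO SD 1 also had the low cerebellar level given above, but DKO KD 47 did not (12.3). As the transcripts of the copies are nearly identical, whether the copies or the assignment of reads differed was not tested.

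**Figure D2:**
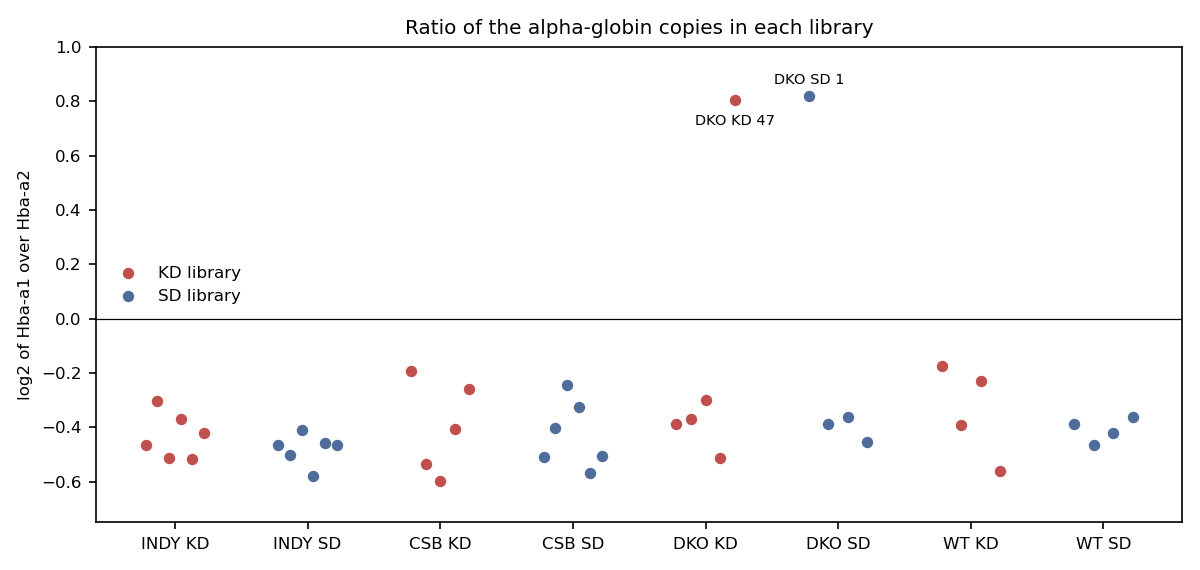
Log2 ratio of Hba-a1 to Hba-a2 in each library, by genotype and diet. DKO KD 47 (0.80) and DKO SD 1 (0.82) lie above 0, and the other 38 libraries lie between -0.60 and -0.17.

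The balance of the chains was compared as the log2 ratio of summed alpha to summed beta transcripts in each library. It averaged 0.08 ± 0.15 in KD and 0.09 ± 0.15 in SD libraries of INDY (SD, n = 6 each; two-sided exact permutation p = 0.955). In CSB it averaged 0.26 ± 0.21 in KD (n = 5) and 0.12 ± 0.13 in SD libraries (n = 6; exact permutation p = 0.221). In DKO it averaged 0.14 ± 0.18 in KD (n = 5) and 0.03 ± 0.12 in SD libraries (n = 4; exact permutation p = 0.397). In WT it averaged 0.03 ± 0.10 in KD and 0.20 ± 0.20 in SD libraries (n = 4 each; exact permutation p = 0.2, where 0.0286 is the smallest p that 4 against 4 allow). Adjusted over the 4 genotypes the p-values were 0.442 to 0.955, and the difference of KD minus SD ran from -0.16 in WT to 0.14 in CSB on the log2 scale. Leaving out each library in turn gave differences of -0.060 to 0.032 in INDY, 0.067 to 0.18 in CSB, 0.028 to 0.16 in DKO and -0.24 to -0.094 in WT.

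Alas2 (ENSMUSG00000025270.13, chrX:150547375-150570638) catalyses the first and rate-limiting step of erythroid haem synthesis. In CSB it read 85.8, 196, 233, 177 and 134 in the KD libraries, against 216, 274 and 395 (lowest, median and highest) in SD. Of the KD libraries 4 lay below every SD library, and the fifth, CSB KD 19, lay among the lowest SD values. The log2 difference was -0.86 (SE 0.45, unadjusted p = 0.0665, adjusted p = 0.984).

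In INDY it read 98.3, 151 and 376 (lowest, median and highest) in KD, against 137, 266 and 351 in SD, a difference of -0.60 (SE 0.43). In DKO it read 202, 374, 107, 172 and 74.9 in KD, against 68.1, 292, 373 and 326 in SD, a difference of -0.47 (SE 0.50), or -1.04 (SE 0.49) without DKO SD 1. In WT it read 243, 541, 112 and 94.7 in KD 7, 12, 25 and 28, against 120, 234, 531 and 292 in SD. The WT difference was -0.41 (SE 0.53), -1.31 (SE 0.59, adjusted p = 0.231) without WT KD 7 and WT KD 12, and -0.14 (SE 0.57) without WT KD 25. In each of the 4 genotypes the KD and SD values overlapped, and INDY KD 22, DKO KD 3 and WT KD 12 stood above every SD library of their genotype.

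Averaged over genotypes Alas2 differed by -0.58 (SE 0.24, unadjusted p = 0.0202). The 13 other tested genes of haem synthesis and transport were listed beside it, among them Fech, which inserts iron into the ring, Alas1, the housekeeping form of the first enzyme, Cpox, a later enzyme of the pathway, and Abcb10, a mitochondrial transporter. Of these 13, 0 were called in any diet comparison. At an unadjusted p under 0.05, 1 was lower in INDY, 1 higher in CSB and 2 higher in WT. Their median log2 difference was -0.06 in INDY, -0.01 in CSB, 0.06 in DKO, 0.06 in WT and 0.02 on average. Alas1 differed by -0.16 (SE 0.06) in INDY and by 0.03 (SE 0.06) in CSB, and Fech by 0.02 (SE 0.08) in INDY and 0.10 (SE 0.08) in CSB.

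Slc4a1 (ENSMUSG00000006574.15) differed from the other 5 genes in that 2 libraries stood far above all others. In WT it read 318, 806, 13.1 and 10.1 in KD 7, 12, 25 and 28, against 22.0, 23.0, 57.8 and 38.8 in SD. Of the KD libraries, 2 lay above every SD library and 2 below. The log2 difference was 1.24 (SE 0.84, adjusted p = 0.503), and it was -1.43 (SE 0.68, adjusted p = 0.252) without WT KD 7 and WT KD 12 and 2.07 (SE 0.84, adjusted p = 0.649) without WT KD 25.

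In INDY, Slc4a1 read 9.92, 22.1 and 61.0 (lowest, median and highest) in KD, against 7.06, 34.1 and 47.1 in SD, a difference of -0.23 (SE 0.69). In CSB it read 97.8, 25.1, 40.9, 27.2 and 30.9 in KD, against 19.4, 33.1 and 46.4 in SD. The CSB difference was 0.25 (SE 0.72), or -0.080 without CSB KD 13, the library that read 97.8. In DKO it read 16.1, 38.6, 16.8, 26.3 and 16.3 in KD, against 5.73, 48.6, 50.7 and 28.4 in SD, a difference of -0.25 (SE 0.80), or -0.91 (SE 0.83) without DKO SD 1.

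Averaged over genotypes Slc4a1 differed by 0.25 (SE 0.38, 95% interval -0.52 to 1.03), and by -0.41 (SE 0.27, adjusted p = 0.946) without WT KD 7 and WT KD 12. With the neutrophil level as a covariate the WT difference was -0.024 (SE 0.52) and the average 0.16 (SE 0.23).

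**Figure D3:**
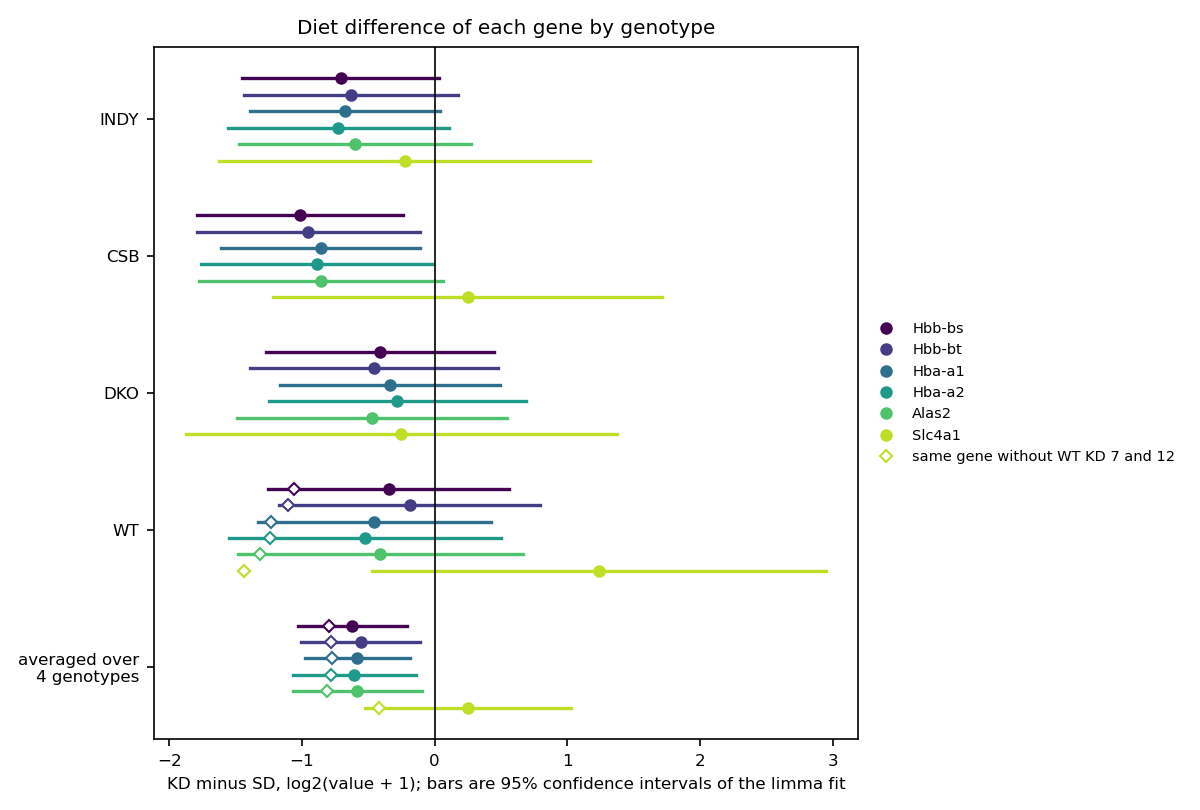
Log2 difference of KD minus SD of each gene, with bars for the 95% confidence interval of the limma fit, in INDY, CSB, DKO and WT and averaged; open diamonds give WT and the average without WT KD 7 and WT KD 12. The globins and Alas2 lie below 0 in each genotype and Slc4a1 turns from 1.24 to -1.43 in WT when the 2 libraries are left out; 0 of 6 genes passed.

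WT KD 12 and WT KD 7 carried transcripts of neutrophils and of blood cell precursors that the other libraries held at low levels. The neutrophil genes S100a9, Ngp and Mpo read 3935, 2505 and 435 in WT KD 12 and 870.0, 515 and 212 in WT KD 7. In the other 38 libraries they read at most 126, 73.2 and 8.95. Of 13 neutrophil genes 12 were above all 38 others in both libraries. Elane, a protease of neutrophil granules, read 116 and 49.7, and it was at 0 in 26 of the 38 others.

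Of 18 red cell membrane genes 7 were above all other libraries in both of these, as were 6 of 21 matched erythroid regulators, 4 of 10 platelet genes and 1 of 10 lymphocyte genes. For these counts, and for those of the neutrophil genes above and the members below, the share of all genes was not computed. The mean log2 level of the 14 tested erythroid regulators was 9.63 in WT KD 12 and 9.38 in WT KD 7, where 37 other libraries had a median of 9.36. The tested part of the list thus did not stand apart in WT KD 7. The 6 regulators that were above all other libraries did not pass the filter on low values. The level therefore does not cover them. The genes named next were chosen after their values were seen. Epb42, protein 4.2 of the red cell membrane, read 101 in WT KD 12 and 31.8 in WT KD 7, against 0 to 23.6 in the other 38. Hemgn, a nuclear protein of erythroid precursors, read 113 and 46.6, against 0 to 5.11, and Klf1, the erythroid Krüppel-like factor, read 30.7 and 17.7, against 0 to 7.03.

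Of the 6 members only Slc4a1 was above all 38 other libraries in both. In WT KD 7 the globins were not high, with 5259 for Hbb-bs against a median of 5124 over the 40 libraries. In WT KD 12 Hbb-bt (1712) and Alas2 (541) were the highest of the 40 libraries. Hbb-bs (10472), Hba-a1 (5065) and Hba-a2 (6643) in WT KD 12 were below the highest of the other 38 libraries, 10577, 6061 and 8121. The 2 other WT KD libraries, 25 and 28, stood at 0 for Mpo, Ngp, Elane, Camp and Hemgn. What part these transcripts had in the Slc4a1 difference was not tested beyond the values with and without the 2 libraries and those with the neutrophil level as a covariate. CSB KD 13, with 97.8 for Slc4a1, had a neutrophil level of 2.75 and a red cell membrane level of 6.91, both low among the libraries.

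**Figure D4:**
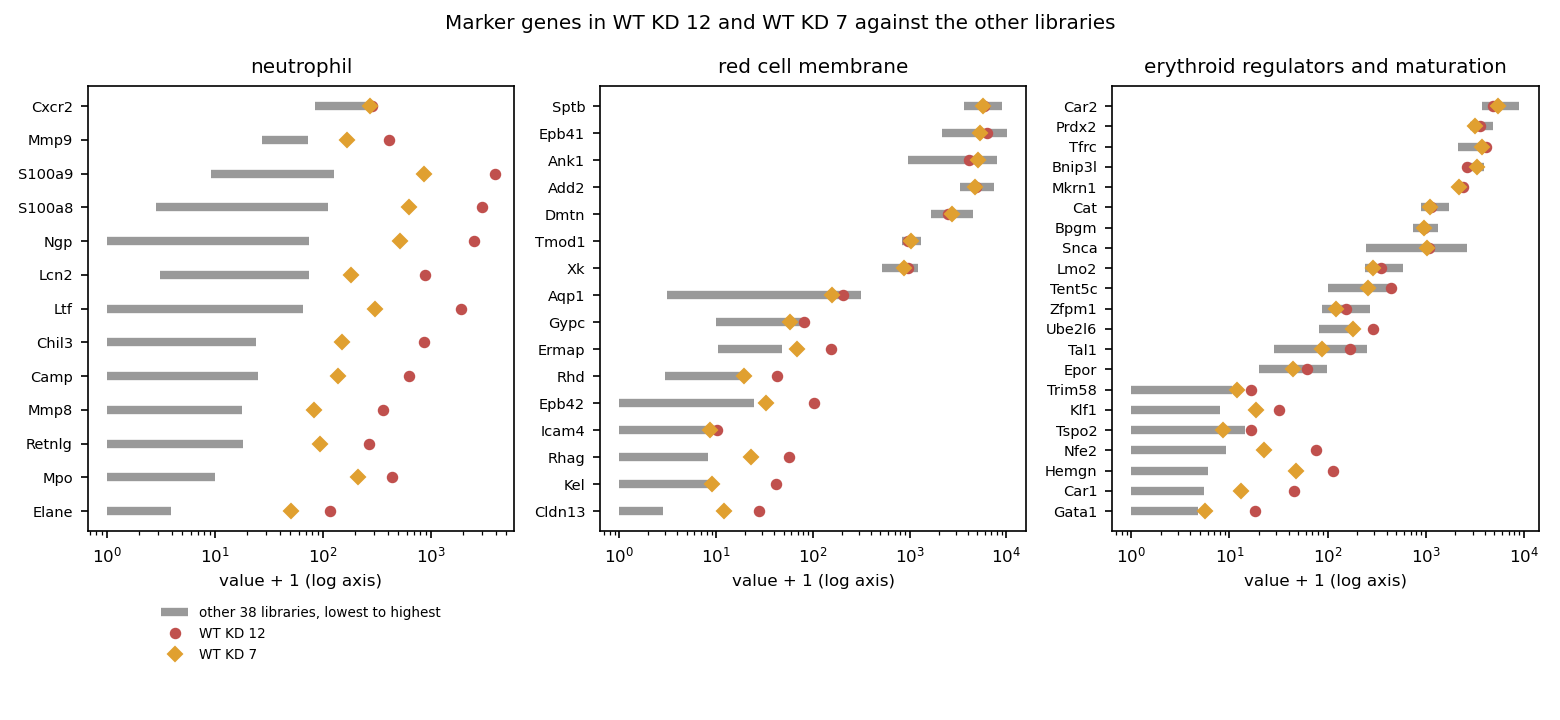
Value plus 1 on a log axis of genes from the neutrophil, red cell membrane and erythroid lists in WT KD 12 (circles) and WT KD 7 (diamonds), with grey bars from the lowest to the highest of the other 38 libraries. Neutrophil genes such as Mpo (435 and 212, against at most 8.95) lie to the right of the bars, while widely expressed genes such as Sptb lie within them.

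Markers of other cell types were set beside the CSB difference, which was the largest of the 4 for the globins with all libraries in. Of 12 choroid plexus genes 12 were lower on KD in CSB, with a median of -1.38, and their mean log2 level was 4.99 to 8.66 in KD and 7.81 to 9.55 in SD libraries. Ttr, transthyretin, differed by -2.89 (SE 1.45). Of 18 liver genes 18 were lower, with a median of -1.90 and a level of 2.56 to 6.495 in KD and 3.20 to 9.75 in SD. Of 10 meningeal fibroblast genes 10 were lower (median -0.38), as were 11 of 11 tested neutrophil genes (median -0.63), 9 of 10 mural genes (median -0.21) and 13 of 14 endothelial genes (median -0.08). Cerebellar and forebrain genes went the other way: 0 of 12 cerebellar genes (median 0.47) and 3 of 15 forebrain genes (median 0.34) were lower on KD. The cerebellar level was 12.3 to 12.9 in KD and 10.9 to 13.0 in SD libraries, and the forebrain level 4.26 to 6.69 in KD and 4.66 to 5.21 in SD libraries. None of these genes passed, with a smallest adjusted p of 0.984 and 0 called by limma, and their part in the globin difference was not tested. The endothelial level was 8.36 to 8.67 in KD and 8.42 to 8.77 in SD libraries of CSB, and the neutrophil level 2.75 to 4.31 in KD and 3.69 to 5.56 in SD.

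In WT, 12 of 12 choroid plexus genes (median -1.88) and 12 of 12 cerebellar genes (median -0.68) were lower on KD, while 11 of 11 neutrophil genes (median 1.78) and 6 of 6 platelet genes (median 0.65) were higher. The neutrophil level was 7.87 and 9.82 in WT KD 7 and 12 but 2.58 and 2.60 in WT KD 25 and 28, against 3.39 to 4.62 in WT SD. The platelet level was 4.91 and 5.61 in WT KD 7 and 12 and 3.85 and 3.64 in WT KD 25 and 28, against 3.68 to 4.11 in WT SD. The higher medians of these lists on KD therefore rest on WT KD 7 and 12. The choroid plexus level was 8.16 and 8.45 in WT KD 7 and 12 and 5.15 and 4.84 in WT KD 25 and 28, against 7.93 to 9.49 in WT SD. In DKO, 12 of 12 cerebellar genes were higher (median 1.15) and 14 of 15 forebrain genes lower (median -1.44), a comparison that includes DKO SD 1. The cerebellar level was 12.3 to 12.6 in DKO KD, against 8.17 in DKO SD 1 and 11.1 to 12.9 in the other 3 DKO SD libraries, and the forebrain level 4.67 to 7.19 in DKO KD, against 9.72 in DKO SD 1 and 4.66 to 7.76 in the other 3. In INDY, 10 of 10 meningeal genes were higher (median 0.20) and 16 of 18 liver genes lower (median -0.54). Of all these marker genes 0 were called, and their part in the member differences was not tested.

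The 14 tested red cell membrane genes other than Slc4a1 had a median difference of 0.04 in INDY, -0.04 in CSB, 0.25 in DKO, 0.20 in WT and 0.02 on average, and 0 of 14 were called. The most abundant of them in cerebellum, Sptb (beta spectrin), Epb41 (protein 4.1), Ank1 (ankyrin) and Add2 (beta adducin), are also made by neurons. They read 3666 to 9101, 2180 to 10155, 958 to 8025 and 3322 to 7433 over the 40 libraries. The 14 tested erythroid regulators had medians of -0.09 in INDY, -0.01 in CSB, -0.07 in DKO and 0.07 in WT, again with 0 called. At an unadjusted p under 0.05, 2 were lower on average.

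Of 12 other globins 4 were tested, among them Ngb and Cygb, the globins of neurons and of fibroblasts and other cells, and 0 were called. Ngb differed by -0.41 (SE 0.33) in INDY, 0.03 (SE 0.34) in CSB, -0.50 (SE 0.38) in DKO and 1.11 (SE 0.40, adjusted p = 0.285) in WT, and Cygb by -0.01 (SE 0.06) on average. Among 12 genes that clear haemoglobin, haem or iron, such as Fth1 and Ftl1, the ferritin chains, Lrp1, the haemopexin receptor, and Ncoa4, the ferritin cargo receptor, 0 were called. Their medians were -0.12 in INDY, -0.04 in CSB, -0.02 in DKO and 0.16 in WT.

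The diet differences themselves were compared with that of WT. For INDY minus WT the members ran from -1.47 to -0.19, for CSB minus WT from -0.99 to -0.36, and for DKO minus WT from -1.49 to 0.24. Of 6 members 0 were called in each (0.014% of all genes for INDY, 0% for CSB and DKO), and 0 had an unadjusted p under 0.05, against 3066 (14.3%), 1369 (6.41%) and 3988 (18.7%) of all genes. The smallest adjusted p of a member was 0.518, 0.799 and 0.502. The larger difference in CSB than in WT is therefore not one that the test separated from the spread. These comparisons share the WT libraries. Without WT KD 7 and WT KD 12 the sign turned for every member that had been negative. The ranges were then 0.35 to 1.21 for INDY, 0.041 to 1.68 for CSB and 0.65 to 1.18 for DKO (smallest adjusted p = 0.404). For WT on KD that setting rests on WT KD 25, which goes against its label, and WT KD 28. Without WT KD 25 the ranges were -2.30 to -0.37, -1.82 to -0.54 and -2.32 to 0.063. Without DKO SD 1 the range for DKO was -2.15 to -0.23. Again 0 of 6 were called in each, and the shares of all genes called in these reduced settings are not given here.

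Genotypes were compared with WT on each diet. On SD the members ran from -0.29 to 0.15 in INDY, from -0.02 to 0.28 in CSB and from -0.37 to 0.11 in DKO, and 0 of 6 were called. The share of all genes called was 0.00468% for INDY, 0.136% for CSB and 5.92% (1265 genes) for DKO. On KD the members ran from -1.75 to -0.13 in INDY, from -1.01 to -0.20 in CSB and from -1.83 to 0.06 in DKO, with 0 of 6 called (0.00936%, 0.00468% and 0.00936% of all genes). At an unadjusted p under 0.05 there was 1 member, Slc4a1, lower in INDY and in DKO on KD (2.3% and 3.29% of all genes were lower, and 6.59% and 6.39% differed in either direction). There was none in CSB on KD (8.23% of all genes) or on SD, where the shares of all genes were 14.3% in INDY, 7.88% in CSB and 31.5% in DKO.

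Slc4a1 on KD differed by -1.75 (SE 0.77, adjusted p = 0.668) in INDY, -1.01 (SE 0.80, adjusted p = 0.718) in CSB and -1.83 (SE 0.80, adjusted p = 0.776) in DKO from WT. Without WT KD 7 and WT KD 12, with only WT KD 25 and WT KD 28 left in WT KD, these differences were 0.92, 1.66 and 0.85. The 6 members then ran from 0.50 to 0.92 in INDY, from 0.27 to 1.66 in CSB and from 0.59 to 0.85 in DKO, all above 0. Without WT KD 25 the members ran from -2.59 to -0.31, from -1.84 to -0.38 and from -2.66 to -0.086. On SD, without DKO SD 1, those of DKO ran from 0.28 to 0.60. In each of these 0 of 6 were called. The shares of all genes called in these reduced settings are not given here, and those above belong to the fit of all libraries.

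Between libraries the members varied more than most genes. The SD of log2 values within groups was 0.66 for Hbb-bs, 0.71 for Hbb-bt, 0.63 for Hba-a1, 0.74 for Hba-a2, 0.78 for Alas2 and 1.24 for Slc4a1, against a median of 0.32 over the tested genes. Of the tested genes 82.3% had a smaller SD than Hba-a1, the least variable member, and 96.7% a smaller one than Slc4a1.

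Within groups the globins and Alas2 varied together. Over the 40 libraries, log2 values of Hbb-bs had a Pearson r of 0.98 with Hbb-bt, 0.96 with Hba-a1, 0.95 with Hba-a2 and 0.96 with Alas2, with Spearman's rho of 0.97 to 0.99. Each permutation p was 1e-05, the smallest that 100000 permutations can give, for r and for rho, and adjusted over the 15 relations it was 3.75e-05 for r and 3e-05 for rho. Leaving out the 2 libraries farthest from the median on the other level gave r of 0.95 to 0.98. Taken as deviations from group means, r was 0.98, 0.95, 0.96 and 0.96. The points share 1 normalisation. Hbb-bs and Hbb-bt matched in 570 of 609 aligned columns, and reads assigned between these copies can add to their relation.

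Slc4a1 followed Hbb-bs less closely, with r = 0.52 (permutation p = 0.00028, adjusted p = 0.0007) and rho = 0.63, and r = 0.55 without WT KD 12 and WT KD 7. As deviations from group means its r was 0.68, and 0.60 without WT KD 12 and WT KD 28, the 2 farthest.

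**Figure D5:**
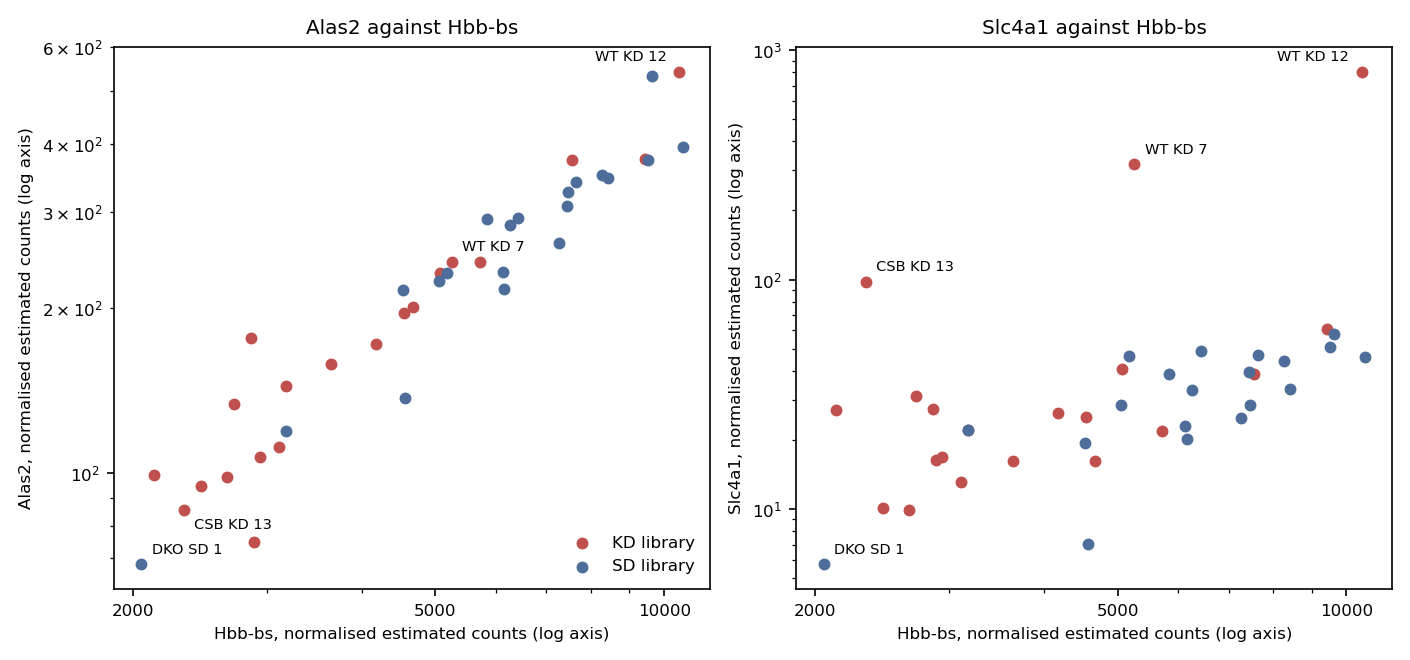
Alas2 (left) and Slc4a1 (right) against Hbb-bs, each as normalised estimated counts on log axes, with 1 point per library coloured by diet. Alas2 follows Hbb-bs over all libraries (r = 0.96), while WT KD 12, WT KD 7 and CSB KD 13 stand above the other libraries in Slc4a1 (r = 0.52).

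Among the cell type lists, the level of the 6 tested platelet genes of 10 listed had the highest correlation with Hbb-bs, r = 0.51 (rho = 0.56, permutation p = 0.00025, adjusted p = 0.0007), and 0.68 as deviations from group means. Without WT KD 12 and WT KD 7 it was 0.56. Endothelium gave r = 0.45 (rho = 0.42, permutation p = 0.00371, adjusted p = 0.00795), meningeal fibroblasts 0.43 (rho = 0.41, permutation p = 0.0057, adjusted p = 0.0107), mural cells 0.41 (rho = 0.33, permutation p = 0.00915, adjusted p = 0.015), neutrophils 0.39 (rho = 0.39, permutation p = 0.00998, adjusted p = 0.015) and liver genes 0.36 (rho = 0.29, permutation p = 0.024, adjusted p = 0.0327). Without the 2 libraries farthest from the median these were 0.47, 0.31, 0.30, 0.37 and 0.38. By rho, mural and liver genes did not pass (adjusted p = 0.0582 and 0.0900, permutation test). Choroid plexus (r = 0.28, rho = 0.22, adjusted p = 0.101), cerebellar (r = 0.26, rho = 0.09, adjusted p = 0.124), lymphocyte (r = 0.17, rho = 0.14, adjusted p = 0.309) and forebrain genes (r = -0.09, rho = 0.07, adjusted p = 0.592) did not pass in the same permutation tests.

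Of 14181 named genes with a mean of at least 20, those whose deviations from group means were most like the mean of the 4 globins included Tent5c (r = 0.82), Ube2l6 (0.77), Casp12 (0.73) and Gna13 (0.72), followed by Rsad2, Tnfrsf11b, Fam43a, Ppp1r26 and Glipr2 (0.72 to 0.69), all over 40 libraries. Tent5c, a poly(A) polymerase, and Ube2l6, a ubiquitin-conjugating enzyme, were also in the list of erythroid maturation genes. Without WT KD 7 and WT KD 12 the values of Tent5c, Gna13 and Ube2l6 were 0.77, 0.73 and 0.70 over 38 libraries. Tent5c differed between diets by -0.40 (SE 0.14; adjusted p = 0.9997) on average.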

How the data were processed

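For every gene and library the authors deposited 1 signal value, which is an estimated read count after their own normalisation. Trizol-chloroform extraction, removal of ribosomal RNA and DNBseq library preparation at BGI are per the labels' protocols. Bowtie2, Salmon, DESeq2 and the build mm9 are named, without versions, per the submitters' processing notes. The files give no read depth, so no counting interval was computed. Genes were named from the GENCODE annotation on GRCm38 (54097 of 54331 IDs matched without version), and positions belong to that annotation, which differs from the build of the notes. Genes that read 10 or higher in 4 or more libraries entered a limma 3.58.1 test (R 4.3.3) on the log2(value + 1) scale, in 1 fit of 8 group means with an intensity trend and robust variances, two-sided, with Benjamini-Hochberg adjustment over 21367 genes in each of 14 comparisons and a threshold of 0.05. Folds are on that scale and understate the change of low genes. Simulated data with known changes were used to test the scripts. Group values are mean ± SD; errors of differences are standard errors. Ratios were compared with exact permutation tests, and relations with 100000 permutations (scipy 1.17.1). The members and all gene lists were chosen with earlier results of these data known. Besides the 6 members, named genes were those of highest mean level in each list and the 10 genes most like the globins; blood cell genes of WT KD 7 and WT KD 12 and the label check were named after their values were seen. Alternatives were pseudocounts of 0.5 and 5, no filter, rescaling by the median ratio, fits of only the groups compared, summed copies, forebrain or endothelial level as covariate, array weights and leaving out each library. Some items of the gene lists are not reported here.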

Additional observations from a re-analysis of the deposited data

Results flagged for a closer look

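In groups of 4 to 6 libraries, 80 groups of values were examined for 1 library far from the rest of its group. Of these, 4 were marked, a share no higher than the about 1 in 20 that chance alone marks. The groups of values share libraries and genes, so the marks are not independent. The share therefore does not tell whether a given mark arose by chance. In DKO SD, Hba-a2 read 838 in library 1, against 4719 to 5640 in the other 3 libraries. In the same group Alas2 read 68.1 in library 1, against 292 to 373 in the others. The log2 ratio of Hba-a1 to Hba-a2 was 0.82 in DKO SD 1, against -0.45 to -0.36 in the other DKO SD libraries. In DKO KD, the same ratio was 0.80 in library 47, against -0.51 to -0.30 in the others. DKO SD 1 was also the library with the lowest level of cerebellar markers (8.17).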

How the results depend on the processing

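In all 14 comparisons 0 of 6 members were called, and this held in 12 other settings and in 40 settings that left out 1 library each. The smallest adjusted p was 0.0992 (limma). The shares of all genes called in these other settings are not given here. Leaving out WT KD 7 and WT KD 12, leaving out these and DKO SD 1, and the neutrophil level as a covariate were chosen after seeing the data. No paired analysis was possible because the groups share no replicate numbers. The sign of a diet difference turned in 9 of 354 values of the other settings and 8 of 1200 without 1 library. In the other comparisons it turned in 124 of 648 and 94 of 2160, and the cause was not tested. In WT, Hbb-bt turned to 0.15 with the endothelial level as covariate, 0.016 with array weights and 0.03 to 0.20 without 1 library (range over all libraries -0.70 to 0.20), and Alas2 to 0.031 with the endothelial level. Slc4a1 turned to -1.43 in WT without WT KD 7 and 12, with or without DKO SD 1, and to -0.024 with the neutrophil level, which gave 0.37 in DKO. Its average turned to -0.41 and -0.58 in those reduced sets. Against WT on KD it turned to 0.92 (INDY), 1.66 (CSB) and 0.85 (DKO) in both, and with the neutrophil level to 0.59 in CSB and 0.21 in DKO. Without 1 library, Slc4a1 ran from -0.025 to 0.49 on average (lowest without WT KD 12), -0.080 to 0.40 in CSB (lowest without CSB KD 13), -0.91 to 0.068 in DKO (lowest without DKO SD 1), 0.13 to 2.19 in WT (lowest without WT KD 12) and -1.96 to 0.11 in CSB against WT on KD, and Hba-a2 in DKO from -0.93 to 0.0060. The alpha to beta ratio in INDY was 0.032 with Hba-a1 and Hbb-bs alone and -0.060 to 0.032 without 1 library. The relation of Hbb-bs to mural genes no longer passed (r = 0.32), and that to cerebellar genes did (r = 0.42), as deviations from group means.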
